A study of Mus musculus with 6 samples.

Results

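Deubiquitinase genes were compared between distal colon of mice labelled Otud1-/- and mice labelled wild type, the first of these being named for loss of one member of this gene group. The group was taken by name: every protein-coding mouse symbol of the numbered Usp series apart from Usp18, and 25 other deubiquitinase genes given by name (Cyld and members of the other families). The deposited table held 71 of the 74 annotated genes that fit this choice, out of 21374 genes in all. Of the 71, 46 carried a Usp number, and Usp26, Usp51 and Usp9y were not analysed here. All 71 passed the filter on low values, which kept genes with 1 or more normalised reads in 3 or more of the 6 libraries.

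Both groups were C57BL/6 male mice that were 6 weeks old on day 0, when they received azoxymethane, a carcinogen of the colon. Both then had 3 cycles of 4 days on 1.5% dextran sulfate sodium, which injures the colonic lining, and 14 days on water, and were 18 weeks old when distal colon was taken on day 81. RNA was bulk RNA of the tissue left beside the tumours once these had been cut away, with 3 libraries labelled Otud1-/- and 3 labelled wild type. The labels do not give the part of Otud1 that was deleted, nor say whether each library came from its own animal. A p-value here therefore reflects only how these libraries vary, part of which may be technical.

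Deubiquitinases are proteases that remove ubiquitin, a small protein tag, from other proteins or trim chains of it. Chains of different linkage mark proteins for destruction by the proteasome, for sorting through endosomes or as platforms of inflammatory signalling, so each enzyme opposes a set of ubiquitin ligases. Most are cysteine proteases of the USP, OTU, UCH and Josephin families, while the JAMM family uses zinc. In gut tissue, CYLD and OTULIN are known as brakes on inflammatory signalling. OTUD1 is an OTU enzyme described to act on several signalling proteins, among them IREB2, KEAP1 and YAP1.

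Of the 4 members with the smallest p below, Otud1, Usp2 and Usp12 have a single RefSeq start in the promoter set used. Stambpl1 has 4 starts. The 250 bases before the start are shown for Otud1, Usp2 and Usp12 because the report turns on these genes. The windows were read from RefSeq promoters of GRCm38.p6, 5′ to 3′ on the strand of the gene, and capitals mark motif matches on either strand. The motifs searched were the E-box, with the letters CACGTG, the CRE, with the letters TGACGTCA, the GC box, with the letters GGGCGG, the CCAAT box and the TATA box, with the letters TATAAA, and the NF-kB motif. Otud1 lies on the plus strand, chr2:19657481-19657730, Usp2 on the plus strand, chr9:44084670-44084919, and Usp12 on the minus strand, chr5:146794957-146795206. The Usp2 window lies inside the gene as annotated (44067021 to 44095627). It is thus not the window before the first annotated start of Usp2, which was not searched.
Otud1: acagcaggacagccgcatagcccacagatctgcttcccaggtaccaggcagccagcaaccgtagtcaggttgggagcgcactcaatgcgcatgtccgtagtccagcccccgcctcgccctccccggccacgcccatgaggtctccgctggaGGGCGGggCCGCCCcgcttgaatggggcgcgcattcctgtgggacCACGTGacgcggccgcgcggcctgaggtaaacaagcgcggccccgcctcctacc
Usp2: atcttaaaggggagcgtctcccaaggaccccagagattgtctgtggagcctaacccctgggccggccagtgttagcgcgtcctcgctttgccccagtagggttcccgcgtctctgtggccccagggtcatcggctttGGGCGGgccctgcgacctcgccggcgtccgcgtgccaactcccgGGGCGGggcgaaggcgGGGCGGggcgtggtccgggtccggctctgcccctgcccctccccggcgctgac
Usp12: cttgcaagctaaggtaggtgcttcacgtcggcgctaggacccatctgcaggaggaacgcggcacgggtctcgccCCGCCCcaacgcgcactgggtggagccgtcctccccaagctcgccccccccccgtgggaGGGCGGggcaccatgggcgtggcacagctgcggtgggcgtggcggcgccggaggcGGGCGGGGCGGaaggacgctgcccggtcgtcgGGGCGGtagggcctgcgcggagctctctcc
Otud1 had an E-box 54 bases before its start, a motif found in 6.02% of 32851 RefSeq promoter windows of this length and in 8 of 63 windows (12.7%) of the 57 members that were matched by symbol. All 3 windows held a GC box, found in 32.7% of all windows and in 66.7% of the members' windows. Adjacent GC boxes of Usp12 overlap by 1 base. A match describes these letters only.

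As background on the libraries, each held 15300937 to 19406407 reads assigned to genes. On the first principal component, with 38.8% of the variance, Otud1-/- 1 lay at 83.3 and wild type 1 at -86.5, while the other libraries lay between -25.8 and 28.2. These 2 libraries stood apart, so for a number of genes below the change is also given without them. Other changes are given with all libraries only, and their dependence on these 2 is not shown. Of 21281 tested genes 202 were called (limma, Benjamini-Hochberg adjusted p under 0.05), 70.3% of them lower in the libraries labelled Otud1-/-. The share lower was 60.1% after quantile normalisation and 24.9% after scaling to total reads. In bulk tissue, fewer cells of a type and less RNA per cell cannot be told apart. The summed epithelial markers were 216839 to 345040 normalised reads in the libraries labelled Otud1-/-, against 344993 to 401926 in those labelled wild type, with 1 of 9 markers positive in its change. The summed smooth muscle markers were 52305 to 109483 in the libraries labelled Otud1-/- and 32118 to 35049 in those labelled wild type, with 8 of 8 positive. The summed macrophage markers were 6153 to 7830 in the libraries labelled Otud1-/- and 8977 to 12853 in those labelled wild type, with 0 of 6 positive. The summed neutrophil markers were 2762 to 3489 in the libraries labelled Otud1-/- and 7047 to 9792 in those labelled wild type, with 1 of 3 positive. No marker of these 4 lists was at 0 in any library, and the part of these shifts in the values below was not tested.

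None of the 71 deubiquitinase genes was called, where 0.949% of all tested genes were, 0.282% as higher and 0.667% as lower. At an unadjusted p under 0.05 there were 9 members (12.7%), 4 higher and 5 lower, where 19.5% of all tested genes passed, 9.5% higher and 9.97% lower (limma). edgeR on the recovered reads also called 0 members, where it called 0.37% of genes, and DESeq2 called 3, Otud1, Usp2 and Stambpl1, where it called 8.4% of genes. With library weights, and without Otud1-/- 1 and wild type 1, limma called Otud1 alone of the members, where it called 2.65% and 1.9% of genes. The family median of the log2 change, libraries labelled Otud1-/- minus wild type, was -0.0037, beside 0.017 over all tested genes (0.20 and 0.22 after scaling to total reads). Of the members 34 had a positive and 37 a negative change. These counts moved with the scaling, to 42 and 29 after quantile normalisation and to 60 and 10 after scaling to total reads. In 18 members (25.4%) the libraries of the 2 groups did not overlap, 5 higher and 13 lower in Otud1-/-, where 26.3% of all tested genes were separated, 13% higher and 13.3% lower. Among genes with a mean of at least 200 normalised reads, 15 of 58 members (25.9%) were separated, 2 higher and 13 lower. Of all 9830 such genes 33.3% were separated, 1117 higher and 2155 lower, so an excess of lower genes was not particular to the members. This bound was chosen after the values were seen.

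The deubiquitinase genes varied little between libraries. The median coefficient of variation over 3 libraries was 10.3% in Otud1-/- and 8.79% in wild type, beside 21.7% and 17.7% over all tested genes, many of which have fewer reads. Among genes with a mean of at least 200 normalised reads, a bound chosen after the values were seen, it was 7.66% and 8.0% over 58 members and 12.1% and 9.34% over 9830 genes. The log2 change was under 0.5 in size for 61 of 71 members (85.9%; 67.3% of all tested genes), and for 59 of 71 (83.1%; 49.8% of all tested genes) the 95% interval of limma lay within 1 log2 unit of 0, that is, within a 2-fold change either way. Of the genes with a mean of at least 200, this held for 93.1% of members and 84.5% of all.

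**Figure D1:**
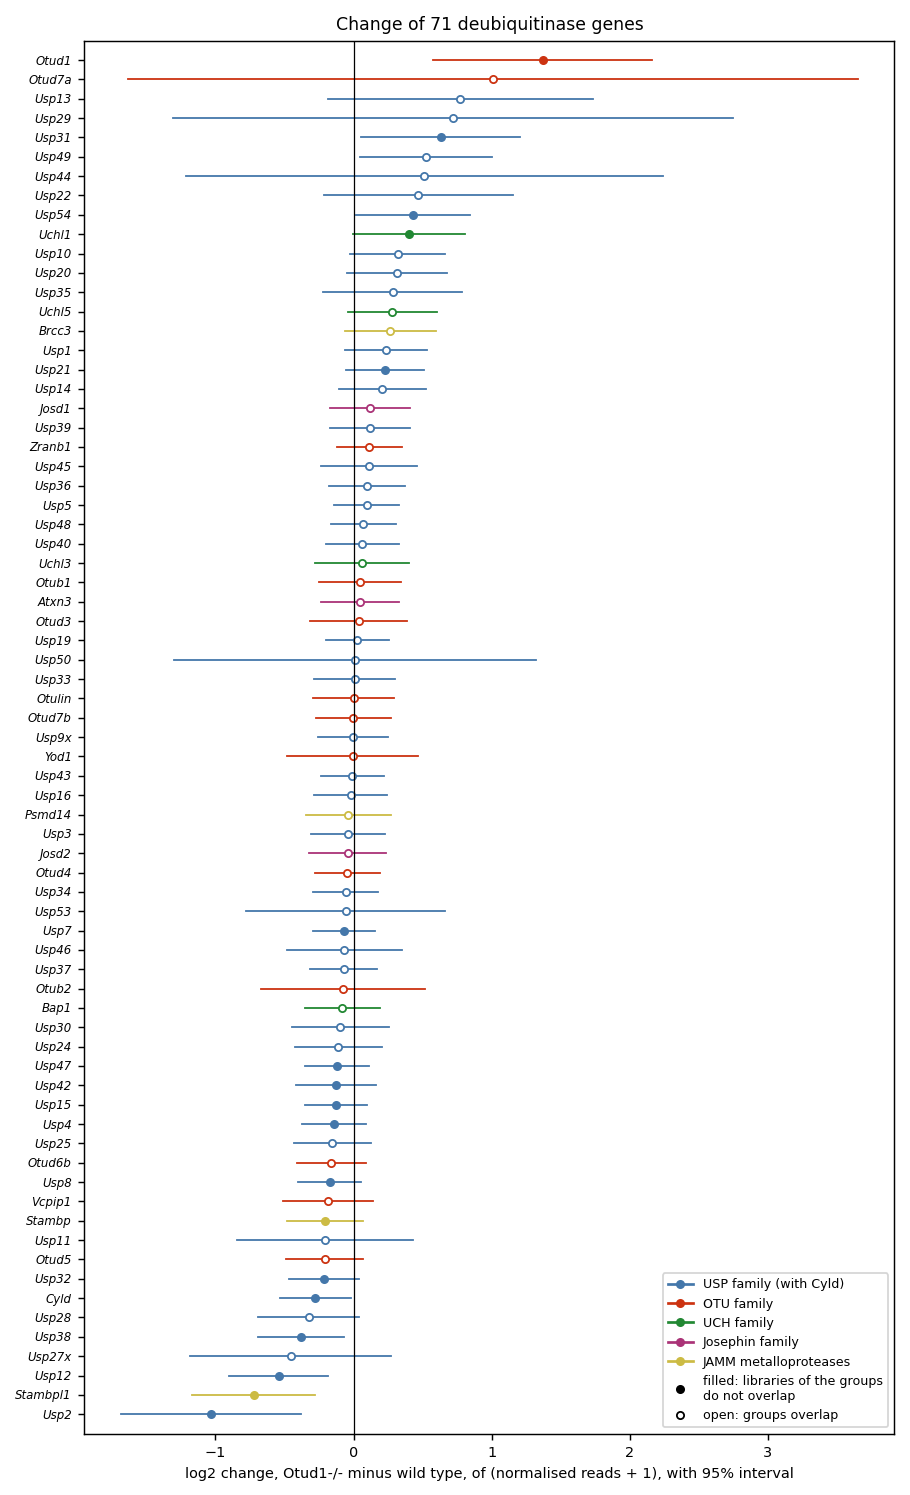
Log2 change (horizontal axis, Otud1-/- minus wild type, of normalised reads plus 1) of the 71 deubiquitinase genes, ordered by size and coloured by family, with the 95% interval of limma as a line. Filled points mark the 18 genes whose libraries did not overlap between the groups; Otud1 stands at the top with 1.37 and Usp2 at the bottom with -1.03.

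Levels per kilobase of exon (normalised reads divided by the exon length in GENCODE vM21, averaged over the means of the 2 groups) ran from 0.142 for Usp29 to 525 for Otub1. Otub1, an OTU enzyme also known to block ubiquitin-conjugating enzymes, led the order, followed by Otud5 with 481, Usp7 with 404, Usp12 with 395 and Psmd14 with 392. The median over the 71 members was 91.6, beside 41.8 over all tested genes. Otud1 itself was among the lower members, with 58.7 in the libraries labelled Otud1-/- and 24.1 in those labelled wild type. There were 4 members with few reads: Usp29, Usp44, Otud7a and Usp50 had at most 10.1, 4.27, 14.5 and 23.5 normalised reads in any library, where 3 reads correspond to 2.56 to 3.37. No change is read from them singly, though they count in the signs and medians given over the 71 members.

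**Figure D2:**
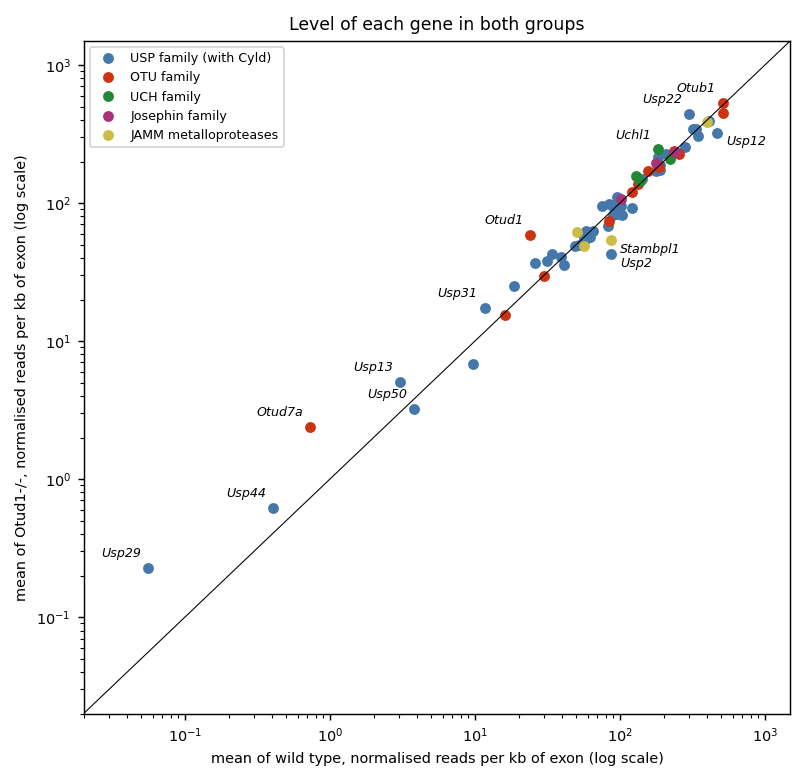
Mean level of each deubiquitinase gene in the libraries labelled Otud1-/- (vertical axis) against those labelled wild type (horizontal axis), in normalised reads per kb of exon, both on log scales, with the line of equal levels. Otub1, at 534 in Otud1-/- and 516 in wild type, is at the upper end and Usp29 at the lower end; Otud1 lies above the line and Usp2 and Stambpl1 below it.

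Of the OTU family (13 genes), Otud1 was the one member whose groups did not overlap (7.69%, where 26.3% of all tested genes did not). The reads of Otud1 went against the labels. Otud1 (ENSMUSG00000043415.5) is a gene of 1 exon and 2832 bases (chromosome 2, plus strand, 19657752 to 19660583, GRCm38). It had 141, 149.6 and 208 normalised reads in the libraries labelled Otud1-/- and 111, 45.1 and 48.9 in those labelled wild type. Every library labelled Otud1-/- was thus above every library labelled wild type, and wild type 1 was well above the other 2 of its group. The change was 1.37 ± 0.35 (SE; 95% interval 0.58 to 2.16), with an adjusted p of 0.0934 (limma), and p = 0.1 in an exact permutation test (two-sided), which is also the lowest p this design can reach. Without Otud1-/- 1 and wild type 1 it was 1.89 with an adjusted p of 0.00495 (limma), with library weights 1.59 and 0.0442, and with DESeq2 1.29 and 0.0148, within a range of 0.00495 to 0.258 over 18 alternatives. All were positive. Reads summed over a gene leave the state of its coding sequence unknown, so the groups are named below only by their labels.

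Of the 3 protein-coding genes with deposited values that start within 500 kb of Otud1, Msrb2 was called higher. It encodes a mitochondrial methionine sulfoxide reductase and starts 286 kb upstream. It had 154, 96.7 and 112 normalised reads in the libraries labelled Otud1-/- and 40.1, 44.2 and 40.8 in those labelled wild type (change 1.49 ± 0.26 SE, limma, adjusted p = 0.0413; 1.27 and 0.0532 without Otud1-/- 1 and wild type 1; 7.7e-05 to 0.173 over 18 alternatives). The 2 groups of Msrb2 did not overlap. Etl4 had a change of -0.37 (adjusted p = 0.204, limma) and Armc3 of -0.87 (0.379).

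Of the remaining 12 OTU genes, 11 had changes under 0.5 in size; Otud7a, with few reads, stood at 1.01 with an interval of -1.63 to 3.65. Otulin, which cleaves the linear ubiquitin chains of inflammatory signalling complexes, had 401, 381 and 426 normalised reads in Otud1-/- and 436, 385 and 389 in wild type. The groups overlapped fully and the change was 0.00029, with a 95% interval of -0.29 to 0.29. Otud7b, also called Cezanne, averaged 1107 ± 105 in Otud1-/- and 1108 ± 97.7 in wild type (SD, n = 3 each), a change of -0.0022 with an interval of -0.27 to 0.27. Otub1 had 1546, 1315 and 1215 in Otud1-/- and 1215, 1241 and 1482 in wild type, with a change of 0.048 and an interval of -0.25 to 0.34. For these 3 genes the interval lies well inside a 2-fold change. Otud5, which restrains the production of type I interferon, had 2131, 2589.7 and 2245 in Otud1-/- and 2815, 2394 and 2845 in wild type. Its groups overlapped through Otud1-/- 2 and wild type 2 (change -0.21, adjusted p = 0.382, limma). The Otud5 change was -0.0012 after scaling to total reads, -0.033 after quantile normalisation and -0.11 without Otud1-/- 1 and wild type 1. Otud3, Otud4, Otud6b, Zranb1, Yod1, Vcpip1 and Otub2 had changes between -0.18 for Vcpip1 and 0.11 for Zranb1.

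Endosome-sorting deubiquitinases were the role group whose 3 members all had lower values in Otud1-/-, though none was called. Over all tested genes 48.3% had negative changes, 13.3% were separated with lower values and 0.949% were called. Of genes with a mean of at least 200 normalised reads, as these 3 have, 5729 of 9830 were negative. With 3 genes picked out by their signs, no trait of the group is read from them. Stambpl1 and Stambp are JAMM enzymes, and all 3 act on cargo receptors at the endosome. Stambpl1 (chromosome 19, 34192229 to 34240333) had 329, 214 and 352 normalised reads in the libraries labelled Otud1-/- and 479, 442 and 528 in those labelled wild type. Each Otud1-/- library lay below each wild type library, with Otud1-/- 2 the lowest. The change was -0.72 ± 0.20 (SE; interval -1.17 to -0.28; adjusted p = 0.107, limma), -0.81 without Otud1-/- 1 and wild type 1, and it passed with DESeq2 (adjusted p = 0.0356), within 0.0356 to 0.277 over 18 alternatives. Usp8 had 1327, 1333 and 1204 in Otud1-/- and 1491, 1429.5 and 1435 in wild type, a small change of -0.17 between groups that did not overlap. Stambp had 518, 476 and 529.8 in Otud1-/- and 564, 554 and 639 in wild type, a change of -0.20. With total-read scaling, where the median of all genes was 0.22, Usp8 stood at 0.035, Stambp at 0.0041 and Stambpl1 at -0.52. Usp8 and Stambp thus changed sign. This scaling multiplies each library by 1 factor, so setting these values against that median adds no separate evidence. Of their ESCRT partners Stam, Stam2 and Hgs, 0 of 3 were called and all 3 had negative changes (median -0.28; 2 of 3 negative after scaling to total reads), with Stam2 at -0.28 (adjusted p = 0.20, limma) and Hgs at -0.29 (0.229).

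**Figure D3:**
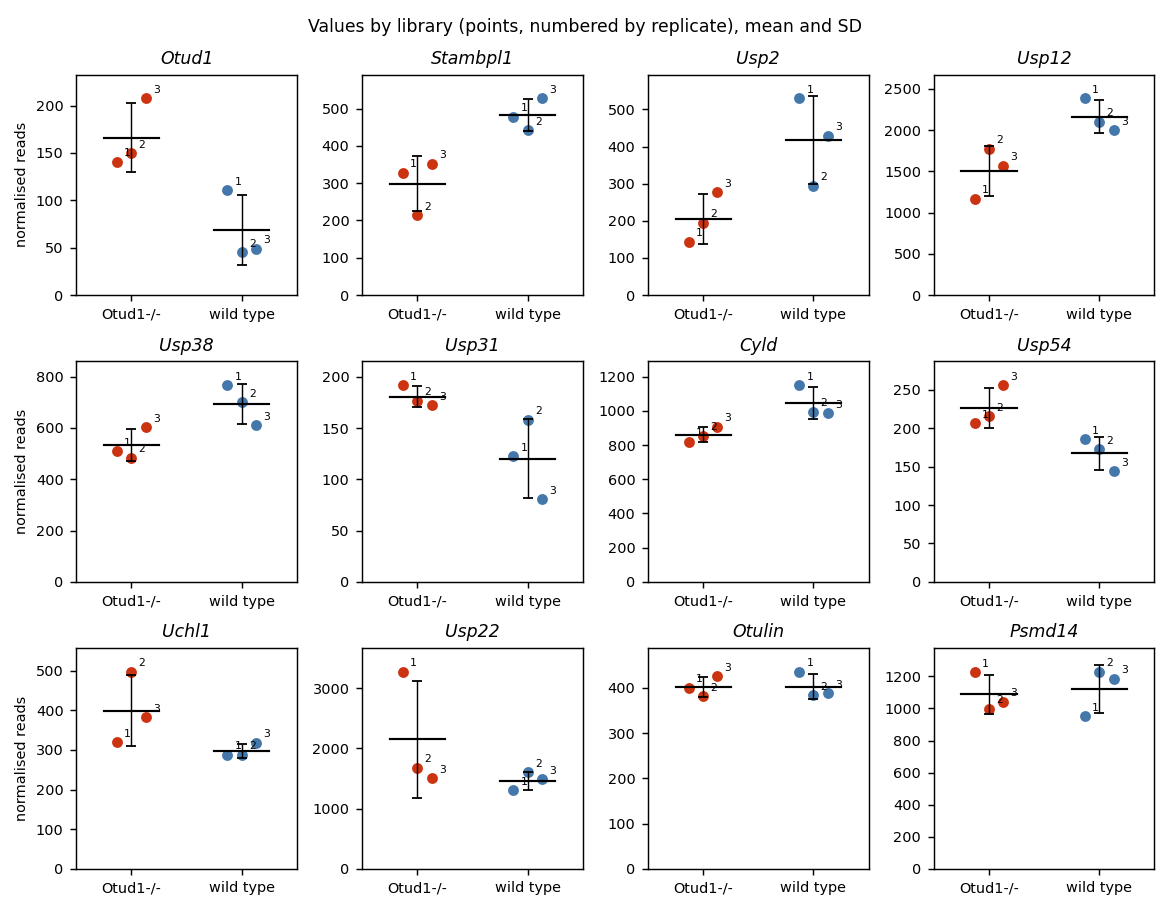
Normalised reads (vertical axis, from 0) of 12 deubiquitinase genes in each library, Otud1-/- in red and wild type in blue, numbered by replicate, with the mean as a bar and the SD as whiskers. The groups do not overlap for Otud1, Stambpl1, Usp2, Usp12, Usp38, Usp31, Cyld, Usp54 and Uchl1; Usp22 is set by Otud1-/- 1 alone (3269), and Otulin and Psmd14 are alike in both groups within their spread.

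Usp2 had the lowest change of the 71. It encodes a USP enzyme known as a rhythmic output of the circadian clock (chromosome 9, 44067021 to 44095627). It had 144, 195 and 277 normalised reads in the libraries labelled Otud1-/- and 531, 294 and 429 in those labelled wild type. The groups stood apart by little, 277 in Otud1-/- 3 against 294 in wild type 2, and the largest distance was between Otud1-/- 1 and wild type 1. The change was -1.03 ± 0.28 (SE; interval -1.68 to -0.38; adjusted p = 0.112, limma). It was -0.61 (adjusted p = 0.268, limma) without Otud1-/- 1 and wild type 1 and passed with DESeq2 (adjusted p = 0.0152), within 0.0152 to 0.291 over 18 alternatives.

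Of the 3 enzymes that work with the scaffold protein WDR48, Usp12 alone stood apart between the groups. That is 33.3%, also the share among all tested genes with a mean of at least 200 normalised reads, so no trait of this group is read from it. Usp12 (chromosome 5, 146734809 to 146795006) had 1171, 1773 and 1566 normalised reads in Otud1-/- and 2388, 2105 and 1999.6 in wild type. All 3 Otud1-/- libraries were lower, Otud1-/- 1 most of all. The change was -0.54 ± 0.16 (SE; adjusted p = 0.121, limma), but -0.30 (adjusted p = 0.388) without Otud1-/- 1 and wild type 1. Usp46, its close paralog, had 567, 344 and 392 in Otud1-/- and 434, 459 and 443 in wild type, a change of -0.068. Usp1, which acts in DNA crosslink repair, had 913, 682 and 828 in Otud1-/- and 672, 713 and 659.7 in wild type, a change of 0.23 between overlapping groups. Usp1 shares 21.4% of its 50-base words with other annotated transcripts, mainly Gm5841, so its count is less certain. Of the 10 cofactors listed for USP enzymes limma called 0, with 3 at an unadjusted p under 0.05; Dmwd, a WDR20-related partner of USP12, had 356, 329.6 and 253 in Otud1-/- and 175, 198 and 195 in wild type (change 0.71, adjusted p = 0.0885, limma; 0.0145 with DESeq2 and 0.0485 after scaling to total reads, within 0.0145 to 0.247 over 18 alternatives), while Wdr48 stood at -0.019 and Wdr20 at -0.12.

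Among deubiquitinases of inflammatory signalling (13 genes), 5 did not overlap between the groups (38.5%, where 26.3% of all tested genes did not): Otud1, Cyld, Usp21, Usp4 and Usp15. Cyld, a tumour suppressor that removes linear chains, had 819, 855 and 906 normalised reads in Otud1-/- and 1151, 996 and 985 in wild type. The lower values in Otud1-/- amounted to -0.28 ± 0.11 (SE; interval -0.53 to -0.02; adjusted p = 0.223, limma), and to -0.068 after scaling to total reads, where the median of all genes was 0.22. The paralogs Usp4 and Usp15, which process proteins of TGF-beta signalling, had changes of -0.14 and -0.13, which turned to 0.067 and 0.081 after scaling to total reads (Usp4 also to 0.035 after quantile normalisation). Usp4 had 2146, 2344 and 2156 in Otud1-/- and 2508, 2441 and 2379 in wild type. Usp21, a deubiquitinase of RIPK1 and of histone H2A, had 500.1, 479 and 432 in Otud1-/- and 413, 403 and 386 in wild type, a change of 0.23. Brcc3, the JAMM enzyme of the BRISC and BRCA1-A complexes, had 503, 409 and 548 in Otud1-/- and 421, 414 and 371 in wild type, a change of 0.27 between overlapping groups. The ligase complex that makes linear chains and its CYLD adaptor Spata2 had 0 of 4 genes called and 4 of 4 negative (median -0.28; 3 of 4 negative by total reads or quantiles), among them Sharpin at -0.28 and Rnf31 at -0.32 (adjusted p = 0.257 and 0.264, limma).

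The 3 deubiquitinases of the proteasome cap showed no separation, where 26.3% of all tested genes were separated. Psmd14, the metalloprotease that removes chains from proteins as they enter the proteasome, had 1228, 999 and 1042 normalised reads in Otud1-/- and 954, 1228 and 1187 in wild type. The change was -0.040, with an interval of -0.35 to 0.27, and it was -0.24 without Otud1-/- 1 and wild type 1. Uchl5 had 491, 399 and 492 in Otud1-/- and 349, 411 and 374 in wild type, overlapping through Otud1-/- 2 and wild type 2 (change 0.28, adjusted p = 0.32, limma). Without Otud1-/- 1 and wild type 1 its change was 0.18. Usp14 had 1041, 816 and 895 in Otud1-/- and 749, 910.4 and 722 in wild type (change 0.21, adjusted p = 0.441, limma). Its change was 0.076 without Otud1-/- 1 and wild type 1. Exons of Usp14 overlap those of Thoc1 on the opposite strand over 26.0% of their length, and the strand setting of the count is not given in the sources used here. Of 17 further cap subunits and 14 core subunits none was called, with medians of -0.016 and -0.097 (13 of 14 core subunits negative, where 48.3% of all tested genes were). The sign of the core subunits turned with the scaling: 11 of 14 were positive after quantile normalisation and 14 of 14 after scaling to total reads (medians 0.043 and 0.112), and Psmb4 stood at -0.21, at 0.0099 and at 0.0015 in these 3 scalings.

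Of 13 enzymes of chromatin and DNA repair, Usp22 had 1 library far from the others. Usp22, the deubiquitinase of the SAGA coactivator complex, had 3269 normalised reads in Otud1-/- 1, against 1678 and 1503 in the other libraries labelled Otud1-/- and 1305, 1604 and 1485 in those labelled wild type. One library therefore carried its change of 0.47 ± 0.29 (SE, adjusted p = 0.418, limma), which was 0.042 without Otud1-/- 1 and wild type 1. Usp49, which acts on histone H2B, had 367, 254 and 332 in Otud1-/- and 169.8, 238 and 256 in wild type (change 0.53, adjusted p = 0.218, limma; 0.23 without Otud1-/- 1 and wild type 1). It shares 51.2% of its exon bases with the overlapping gene Gm20517 on the same strand, so its reads cannot be assigned with certainty. Usp28, known for stabilising MYC in intestinal tumours of mice, had 457, 480.4 and 491 in Otud1-/- and 595, 482 and 740.3 in wild type. The groups met at Otud1-/- 3 and wild type 2, and the change was -0.32 (adjusted p = 0.309, limma). Usp7, which controls the p53 ligase MDM2, had 3145, 3039 and 3013 in Otud1-/- and 3169, 3294 and 3166 in wild type, groups that only just did not overlap, and a change of -0.066 (0.142 after scaling to total reads). Bap1, the nuclear UCH enzyme that acts on histone H2A, had 1109, 962 and 878 in Otud1-/- and 1094, 1010.1 and 1002 in wild type (change -0.080); of its 10 listed partners 0 were called.

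Uchl1, a UCH enzyme abundant in neurons and neuroendocrine cells, had 319, 497 and 382 normalised reads in Otud1-/- and 288, 288 and 318 in wild type. Its lowest Otud1-/- value met the highest wild type value almost exactly, and the change was 0.40 ± 0.18 (SE, interval -0.0036 to 0.80, adjusted p = 0.259, limma). Without Otud1-/- 1 and wild type 1 the change was 0.53. The summed markers of enteric neurons were 1471, 1590 and 1696 in Otud1-/- and 1078, 1394 and 1222 in wild type, with 8 of 8 positive and 0 called. Their part in the Uchl1 values was not tested.

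**Figure D4:**
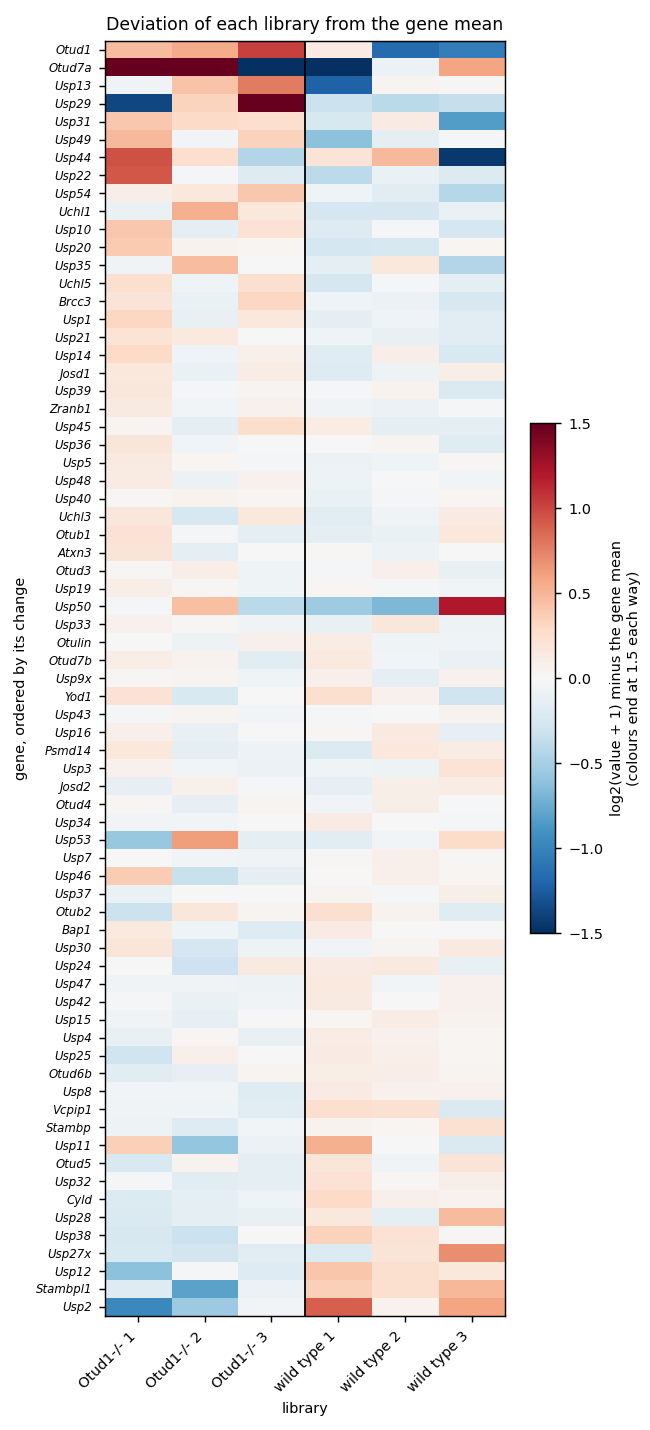
Deviation of each library (columns) from the mean of the gene (rows, ordered by change) on the scale of log2(normalised reads + 1), red above and blue below; colours end at 1.5. Most of the 71 rows are pale, Usp22 is red in Otud1-/- 1 alone, and strong colours in the rows of Otud7a, Usp29, Usp44 and Usp50 belong to genes with few reads.

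Several less studied USP genes completed the separated members. Usp38 had 509, 484 and 602 normalised reads in Otud1-/- and 767, 701 and 609.8 in wild type (change -0.38 ± 0.14 SE, adjusted p = 0.188, limma), and 20.5% of its exon bases overlap Gm9725 on the opposite strand. Usp31 had 192, 177 and 173 in Otud1-/- and 122, 158 and 80.6 in wild type (change 0.63 ± 0.26 SE, adjusted p = 0.219, limma). Usp54 had 207, 216 and 256 in Otud1-/- and 186, 173 and 144 in wild type (change 0.43 ± 0.18 SE, adjusted p = 0.237, limma, and 0.57 without Otud1-/- 1 and wild type 1). These groups did not overlap, yet none of the 3 was called. Usp32, Usp42 and Usp47 were separated with small changes of -0.21, -0.13 and -0.12, and after scaling to total reads they stood at -0.0057, 0.081 and 0.088 (Usp47 at 0.063 after quantile normalisation). Usp53, a protein of tight junctions, had 749, 1726 and 1004 in Otud1-/- and 996, 1085 and 1352 in wild type, with Otud1-/- 2 far above its group. Usp10, known from stress granules with G3BP1, had 1058, 728 and 930.4 in Otud1-/- and 699, 788 and 667 in wild type (change 0.32, and 0.18 without Otud1-/- 1 and wild type 1). Usp13 and Usp20 had changes of 0.77 and 0.31 between overlapping groups, Usp13 at 27.3 to 49.4 reads in Otud1-/- and 11.6 to 29.2 in wild type. Without Otud1-/- 1 and wild type 1 these changes were 0.58 and 0.14.

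The members not named so far had smaller or less certain changes. Usp30 and Usp35, which act at mitochondria, stood at -0.096 and 0.28. Usp5, which takes apart free chains, stood at 0.094, the splicing factor Usp39 at 0.12 and the X-linked Usp9x at -0.0037. The Josephin genes Atxn3, Josd1 and Josd2 stood at 0.045, 0.12 and -0.043. The low-count Usp27x, at 28.1 to 30.3 reads in Otud1-/- and 29.5 to 56.1 in wild type, stood at -0.46. Uchl3, Usp3, Usp11, Usp16, Usp19, Usp24, Usp25, Usp33, Usp34, Usp36, Usp37, Usp40, Usp43, Usp45 and Usp48 all had overlapping groups and changes between -0.21 (Usp11) and 0.11 (Usp45).

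Genes of other steps of the ubiquitin system were mostly not called either. The ubiquitin-activating enzyme gene Uba1 had 5059.6, 4731 and 4769 normalised reads in Otud1-/- and 5855, 5666 and 6013 in wild type (change -0.27, adjusted p = 0.209, limma). Of the 2 activating enzyme genes 0 were called. The groups did not overlap for Uba1, where they did not for 26.3% of all tested genes. The change of Uba1 was -0.012 after quantile normalisation and -0.060 after scaling to total reads. Deubiquitinase genes and related genes outside the naming rule had 0 of 14 called, with Mindy4 at 1.0 and Otulinl at -0.55 (adjusted p = 0.172 and 0.244, limma). VCP partners and BRCC3 partners had 0 of 8 and 0 of 7 called, with Nploc4 at -0.22 and Abraxas1 at 0.48 (adjusted p = 0.277 and 0.216, limma). Of 8 genes with a described link to OTUD1, 1 was called, Tfrc, the transferrin receptor gene, which was lower (-0.93, adjusted p = 0.0188, limma; 3.4e-07 to 0.15 over 18 alternatives), and Trp53 stood at 0.51 (0.113). Without Otud1-/- 1 and wild type 1 Trp53 stood at 0.30. Ireb2 and Keap1 stood at 0.047 and -0.074. Over the 13 lists, limma called 2 of 104 genes, Tfrc and Msrb2, where it called 0.949% of all tested genes; DESeq2 called these and Dmwd.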

How the data were processed

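Bulk RNA sequencing of 6 libraries was analysed, 3 labelled Otud1-/- and 3 labelled wild type, grouped by title and genotype label. The deposited signal is a normalised read count per gene; the submitters' processing notes name mm10, and no source used here gives the aligner, counter or strand setting. Each deposited column was a whole multiple of 1 step (100% of values within 0.001 of a read), so the authors' values are reads divided by a size factor, and reads were recovered from them. IDs were matched to GENCODE vM21 without version suffix (21336 matched, 38 did not). Genes with 1 or more normalised reads in 3 or more libraries were tested with limma 3.58.1 (R 4.3.3; trend and robust) on log2(value + 1), genotype as the only term, two-sided, adjusted by Benjamini-Hochberg over all 21281 genes; fold changes on this scale understate changes of low genes. Alternatives included edgeR 4.0.16 and DESeq2 1.42.0 on recovered reads. Tests were tried on simulated data. Counting error is a lower limit of technical error, as reads carry no molecular identifiers.

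Members and lists were chosen with earlier results of these data known. Named were Otud1, Cyld, Otulin, Uchl1, Psmd14, Usp14, Uchl5, the 10 members with the smallest p in each direction, the 5 with the highest level and up to 2 genes of each other list beside called ones; members given beyond these were named after their values were seen. Libraries of a group differed by more than counting error (lowest chi-square over its degrees of freedom 19.3). Exon overlaps and shared 50-base words were taken from GENCODE vM21. The result of 1 of the other lists is not reported here.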

Additional observations from a re-analysis of the deposited data

How the results depend on the processing

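The deubiquitinase genes had 0 calls in 15 of 18 alternatives, 1 with library weights, 3 with DESeq2 and 1 without Otud1-/- 1 and wild type 1 together. Otud1 kept its direction in all 18 and passed in those 3 (1.59, 1.29 and 1.89); with libraries left out it ranged from 1.14 to 1.89. The family median was -0.032 with library weights, 0.049 by quantiles, 0.20 by total reads and between -0.017 and 0.020 with libraries left out. Over the whole table, 202 calls became 122 with a mean filter of 5, 118 with a pseudocount of 0.1, 0 when limma ran with neither trend nor robust (3499 passed an unadjusted 0.05), 564 with library weights, 413 after scaling to total reads, 62 with edgeR, 1412 with DESeq2, 394 without Otud1-/- 1 and wild type 1, and 10 to 340 without single libraries. The replicate block gave 18 calls and 0 among the members. Replicate numbers are not said to pair the libraries. Correlations of same-numbered deviations were -0.26, -0.10 and -0.088, and no library correlated best with its own number. Deviations from a mean of 3 libraries sum to 0, so these values cannot exclude a pairing. Of the other listed genes 4 were called after scaling to total reads, 3 with DESeq2, 1 with edgeR and without Otud1-/- 1 and wild type 1, 0 after quantile normalisation, with the replicate block and without trend and robust, and 0 to 3 without single libraries. Of 24 named members beside Otud1, 6 changed sign in 17 of 432 values. These were Otub1 (-0.014 with library weights, -0.10 without Otud1-/- 1 and wild type 1), Psmd14 (0.049 by quantiles, 0.17 by total reads), Otulin (-0.022 by quantiles), Usp7 (0.138 by quantiles, 0.142 by total reads), Usp8 and Stambp (0.035 and 0.0041 by total reads). With libraries left out, Otub1 ranged from -0.10 to 0.138, Otulin from -0.041 to 0.060 and Psmd14 from -0.24 to 0.029. The cause was not tested. With 3 libraries a group and member SEs near 0.10 at the best, small changes are not detectable.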

Other observations

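Since Usp2 is known as a clock output, 14 clock genes were looked up after its values had been seen. None was called (limma), and 3 (21.4%, where 19.5% of all tested genes did) had an unadjusted p under 0.05. These were Tef (change 0.55) and Hlf (0.77) with higher values in Otud1-/- and Npas2 (-0.37) with lower values. The groups did not overlap for these 3 genes alone (21.4%, where 26.3% of all tested genes did not). Without Otud1-/- 1 and wild type 1 the changes of Tef, Hlf and Npas2 were 0.37, 1.08 and -0.42. The clock transcription factor gene Dbp had 31.6, 28.1 and 56.5 normalised reads in Otud1-/- and 48.5, 22.6 and 27.5 in wild type, groups that overlapped. Nr1d1, the gene of a clock repressor, had 327, 172 and 52.5 in Otud1-/- and 258, 261 and 236 in wild type, with Otud1-/- 3 far below the rest. The labels give no hour of collection.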
